A study of Mus musculus with 80 samples.

Results

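Fermt2 encodes kindlin-2, a cytoplasmic adaptor protein of integrin adhesions. The gene (ENSMUSG00000037712.18) was chosen for its exon usage in fasted liver: among 13889 genes tested for a difference in exon usage between fasted and control mice it ranked 1 by p per gene. That contrast chose the gene, so every fasted against control value of Fermt2 between circadian time (CT) 12 and CT44 is given here as a description, without a test. It is 1 of 78275 genes in the gene count table, and its 26 exon bins are among 470140 bins of 56055 genes in the exon count table. An exon bin is a stretch of a gene whose set of annotated transcripts does not change within it.

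The libraries came from whole liver of C57BL/6J mice bought at 8 to 12 weeks of age, with no transgene or other allele in any group. All mice were kept in groups on standard chow for 10 days of alternating light and dark and then in constant darkness. Control mice were fed ad libitum throughout, and fasted mice had their food removed at CT10. Livers were taken every 4 h from CT8 to CT44 from 2 males and 2 females per treatment and time, which gave 80 libraries, 40 per treatment. The fasts thus lasted from 2 h at CT12 to 34 h at CT44, and the mice labelled fasted at CT8 were sampled before their food was removed. A piece of about 40 mg from the left lobe was used, so the RNA is that of all liver cells together. In such bulk tissue, fewer cells of a type and less RNA per cell cannot be told apart.

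Kindlins bind the cytoplasmic tails of integrin beta subunits and, together with talins, switch integrins to the state that holds the extracellular matrix. Kindlin-2 is the widely expressed member of the family, kindlin-1 is mainly epithelial and kindlin-3 is found in blood cells. At adhesion sites kindlin-2 also contacts paxillin and the complex of ILK, PINCH and parvin, which links integrins to actin. A gene with more than one first exon can make proteins that differ at their start, because transcription from an internal first exon leaves out the exons before it.

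The deposited exon table names bins by number only, on genome build GRCm39, with no coordinates. In the GENCODE M21 annotation of GRCm38, Fermt2 lies on the minus strand at chr14:45458795-45530118 and has 6 transcripts, which divide it into 26 bins, the number in the deposited table. Across 51082 genes present in both, 46553 (91.1%) had the same number of bins. Bin numbers rise with the genome coordinate: on the minus strand, counts followed bin lengths more closely in that order in 2315 of 2579 genes compared (89.8%). Fermt2 is read from bin 26 down to bin 1. The identity of each bin below rests on this correspondence, and all coordinates are those of GRCm38.

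The full-length transcript Fermt2-201 has 15 exons and 2040 coding bases (680 codons), and its start codon lies in exon 2. Bins 25 and 26 cover its exon 1, bin 23 exon 2, bins 20 and 21 exon 3, and bins 16 to 18 exon 4. Bins 1 to 13 cover exons 15 to 5. Bin 24 belongs to the first exon of Fermt2-203, bin 22 to Fermt2-205 alone, and bin 19 to an intron retained in Fermt2-206. Bin 14 is a 33-base exon found in Fermt2-204 alone. Bin 15 (chr14:45477640-45477861, 222 bases) is the first exon of Fermt2-202, which starts 52257 bases downstream of the full-length start, inside the intron between exons 4 and 5. It lies 4570 bases after exon 4 and 1526 bases before exon 5. Its first 179 bases are untranslated and the last 43 are coding.

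**Figure D1:**
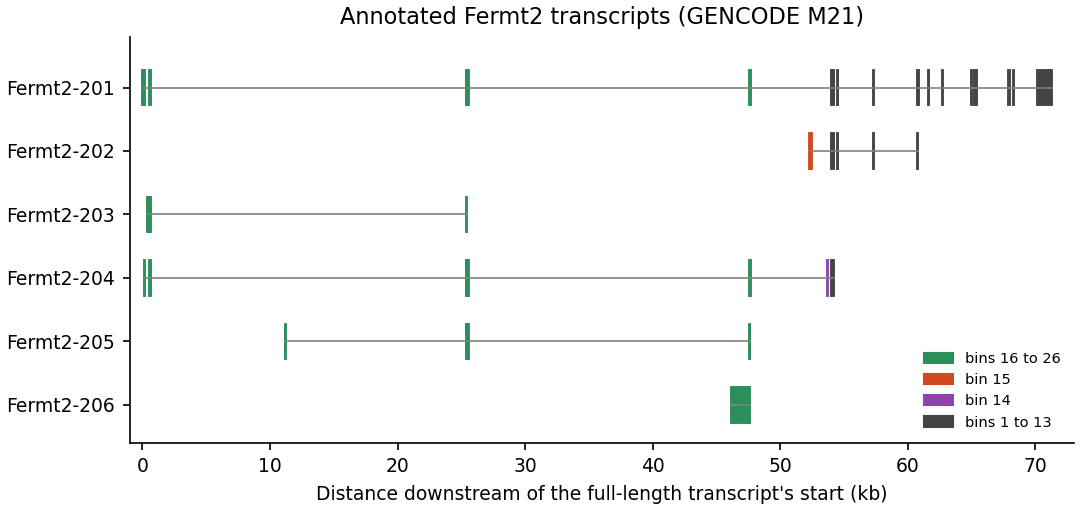
The 6 annotated Fermt2 transcripts, with the distance from the full-length start in kb on the horizontal axis and 1 row per transcript. Boxes are exon bins, coloured as bins 16 to 26 (green), bin 15 (orange), bin 14 (purple) and bins 1 to 13 (dark grey), and bin 15 opens Fermt2-202, after exons 1 to 4 of the full-length transcript.

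The coding starts of both transcripts are shown because bin 15 replaces the one by the other. They are the coding part of bin 15 (chr14:45477640-45477682) and the same length of exon 2 (chr14:45529539-45529581), both from the minus strand, with the start codon in capitals.
Fermt2-202, bin 15: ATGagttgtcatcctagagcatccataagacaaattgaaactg
Fermt2-201, bin 23: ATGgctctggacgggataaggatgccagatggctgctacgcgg
Exons 2 to 4 of the full-length transcript hold 526 coding bases before exon 5, which is 175 whole codons and 1 base. Bin 15 holds 43, which is 14 whole codons and 1 base. Both enter exon 5 in the same phase, and the annotated reading frame of Fermt2-202 is therefore shorter at its start by 483 bases, or 161 codons. The annotation of Fermt2-202 has 5 exons and stops within exon 8, so its 3′ end is not known from it. Bin 14, whose counts also differed between treatments, has the following sequence at chr14:45476418-45476450.
Fermt2-204, bin 14: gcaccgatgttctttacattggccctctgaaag

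The gene table held 25534901 to 59927771 counts per library (median 42303883) and that of exon bins 38029120 to 115551162 bin counts. Fermt2 had 1656 to 7974 gene counts and 3026 to 14163 summed bin counts (median 7936.5), so that 1 count was a small share of the gene in every library. A fragment that overlaps several bins counts in each, and the bin sums therefore exceed the gene counts. Sex marker genes went with the title in 80 of 80 columns of the gene table and in 78 of 80 columns of the exon table. Of the exon columns, 3, all from fasted CT40, were best matched by another fasted CT40 library of the gene table. Fasted CT40 was therefore treated as 1 group of 4 without sex in every exon fit. The library control CT8 female 2 stood apart with 31.3% of its gene counts on 18S ribosomal RNA, against at most 4.88% in any other library. Hepatocyte marker genes summed to 66645 to 122549 CPM (counts scaled to library size by TMM) in control libraries of CT12 to CT44.

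Bin 15, the internal first exon, was the part of the gene that differed most between treatments. Its share of the Fermt2 bin counts in the 36 control libraries of CT12 to CT44 was 1.42% at the lowest, 2.34% at the median and 3.08% at the highest. In the 36 fasted libraries it was 0% at the lowest, 0.607% at the median and 2.35% at the highest. Behind these shares stood 85 to 430 counts per control library (median 211) and 0 to 133 per fasted library (median 41). The mean share was 2.33% ± 0.479 (SD, n = 36) in control and 0.739% ± 0.563 (SD, n = 36) in fasted mice. Relative to the other bins of the gene, bin 15 was lower in fasted mice by a fitted log2 value of -1.95 (SE 0.075), averaged over the 9 times.

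The difference opened within the first 10 h without food. At CT12, after 2 h, the 4 control libraries held 1.72%, 2.35%, 2.78% and 2.97%, and the 4 fasted ones 1.40%, 1.46%, 2.05% and 2.35%. At CT16, after 6 h, control libraries held 1.42%, 1.64%, 1.91% and 2.68%, and fasted ones 0.710%, 0.835%, 1.04% and 1.69%. The groups overlapped at both times. At CT20, after 10 h, control libraries held 2.00%, 2.11%, 2.11% and 3.06%, and fasted ones 0.192%, 0.193%, 0.197% and 0.296%. The mean in control mice was then 10.6 times that in fasted mice. The CT20 values of fasted mice rested on few counts: the library with 0.192% had 12 counts of 6264, with an exact 95% binomial interval of 0.0990% to 0.334%. Such intervals cover counting error only.

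The share in fasted mice was larger on average at CT24 to CT32 than at CT20 and smaller again at CT40 and CT44. At CT24, after 14 h, fasted libraries held 0.213% to 0.942% and control libraries 1.94% to 2.89%. At CT28 fasted libraries held 0.597% to 1.44% and control libraries 1.88% to 3.08%. At CT32 the fasted range was 0.469% to 1.40% and the control range 2.40% to 2.90%. None of these 3 times showed overlap between treatments. At CT36 the fasted range was 0.282% to 0.784% and the control range 1.75% to 2.74%. At CT40 fasted libraries held 0%, 0.300%, 0.423% and 0.578%, against 1.45% to 2.71% in controls. At CT44, after 34 h, fasted libraries held 0.117%, 0.179%, 0.285% and 0.605%, and control libraries 2.05%, 2.24%, 2.75% and 2.80%.

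The mean share was lower in fasted mice at 9 of 9 times, and the treatments did not overlap at 7 of them, CT20 to CT44. Of the 28 fasted libraries from CT20 on, 27 were below the lowest control library of CT12 to CT44. Over all bins tested, the shares of 4 fasted and 4 control libraries did not overlap in 4.03% of pairs of bin and time (2.87% to 4.88% by time), a figure given only as background since the gene was chosen from this contrast. In 1 fasted library, at CT40, bin 15 had a count of 0 of 3223, which allows a share of up to 0.0931% (3 counts of the total), with an exact 95% binomial upper limit of 0.114%. That library is 1 of the fasted CT40 group, in which 3 exon columns were best matched by another library of the same group.

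**Figure D2:**
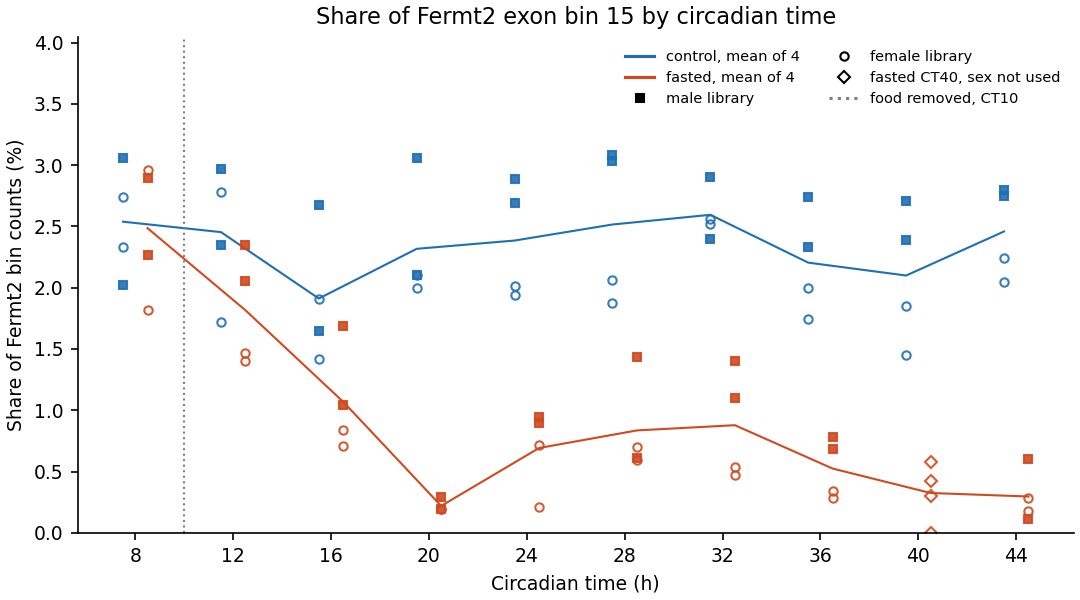
Share of bin 15 in the Fermt2 bin counts (%, vertical axis) against circadian time (h), with 1 point per library and lines through the means of 4. Squares are males, circles females, diamonds the fasted CT40 libraries whose sex was not used, and from CT20 on the fasted points (0% to 1.44%) lie below the control points of the same time.

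Relative to the rest of the gene, the fitted bins before bin 15 were higher in fasted mice, and most of those after it were slightly lower. Of the 14 bins after bin 15 in the direction of transcription, bin 14 is described further on. The other 13, bins 1 to 13, were all relatively lower in fasted mice, by log2 values of -0.13 to -0.07 (median -0.10, SEs of 0.054 to 0.065). They held 80.5% of the gene's bin counts in control mice and so make up most of what a bin is compared with. A fragment can count in several of them, so they are not 13 separate observations. Of the 11 bins before bin 15, bins 16 to 26, 9 had enough counts to be fitted, and all 9 were relatively higher, by 0.37 to 0.85 (median 0.49). Bins 19 and 22 were not fitted, with at most 6 and 4 counts in any library. In all, 24 of 26 bins were fitted. In the fasting contrast 2.07% of all 233672 bins fitted passed an adjusted p of 0.05, 1.22% as higher and 0.857% as lower, which again is background and is read no further for Fermt2.

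The largest relative increase was in bin 24, at 0.85 (SE 0.16), from the first exon of Fermt2-203. It rested on small shares, 0.112% ± 0.0532 in control and 0.195% ± 0.0708 in fasted mice (SD, n = 36), and on at most 28 counts per library. Bin 16 in exon 4 followed at 0.53 (SE 0.057), from a share of 2.96% ± 0.538 in control to 4.26% ± 0.634 in fasted mice. Bin 20 in exon 3 was higher by 0.51 (SE 0.057), with shares of 3.08% ± 0.417 and 4.39% ± 0.512. Bin 1, the last exon and the largest bin by share, held 18.5% ± 0.870 in control and 17.5% ± 1.00 in fasted mice, a relative change of -0.08 (SE 0.065).

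Bin 14, the short exon of Fermt2-204, was the only other bin with a large relative decrease, at -1.23 (SE 0.15). Its share was 0.0319% to 0.828% in control libraries of CT12 to CT44 (median 0.199%) and 0% to 0.335% in fasted ones (median 0.0871%). The treatments overlapped at 8 of these 9 times, all but CT32. Counts were 2 to 88 per control library and 0 to 26 per fasted library.

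**Figure D3:**
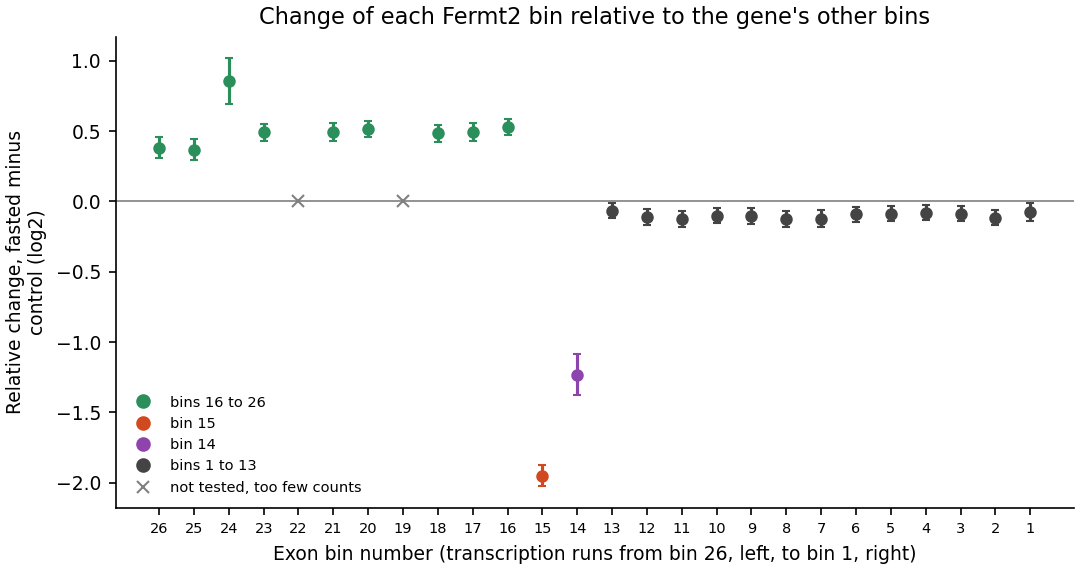
Relative change of each Fermt2 bin, fasted minus control, in log2 units (vertical axis), with bars of 1 SE, against bin number with transcription running from left to right. The bins before bin 15 lie above 0 (0.37 to 0.85), bins 14 and 15 far below (-1.23 and -1.95) and bins 1 to 13 just below (-0.13 to -0.07), and crosses mark the bins not fitted.

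Relative values add up within a gene, so the levels of the 3 stretches were also set side by side, in CPM of all bin counts. The summed level of bins 16 to 26, the exons found upstream of the internal start, overlapped between treatments at 8 of 9 times. Its mean was nevertheless higher in fasted mice at every one of these times. At CT44 it was 21.6 ± 1.82 CPM in control and 22.8 ± 2.73 in fasted mice (SD, n = 4), and at CT20 it was 21.3 ± 1.81 and 21.7 ± 1.85. The exception was CT16, at 19.4 ± 1.12 in control and 22.6 ± 1.77 in fasted mice. Bins 1 to 13 were at 114 ± 17.2 CPM in control and 63.4 ± 9.24 in fasted mice at CT44. Bin 15 alone was at 3.46 ± 0.948 CPM and 0.265 ± 0.225 at that time. The fitted level of bins 1 to 13 was lower in fasted mice by log2 values of -0.47 to -0.41, that of bin 15 by -2.30, and that of the 9 fitted bins upstream differed by 0.02 to 0.51 (median 0.14).

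**Figure D4:**
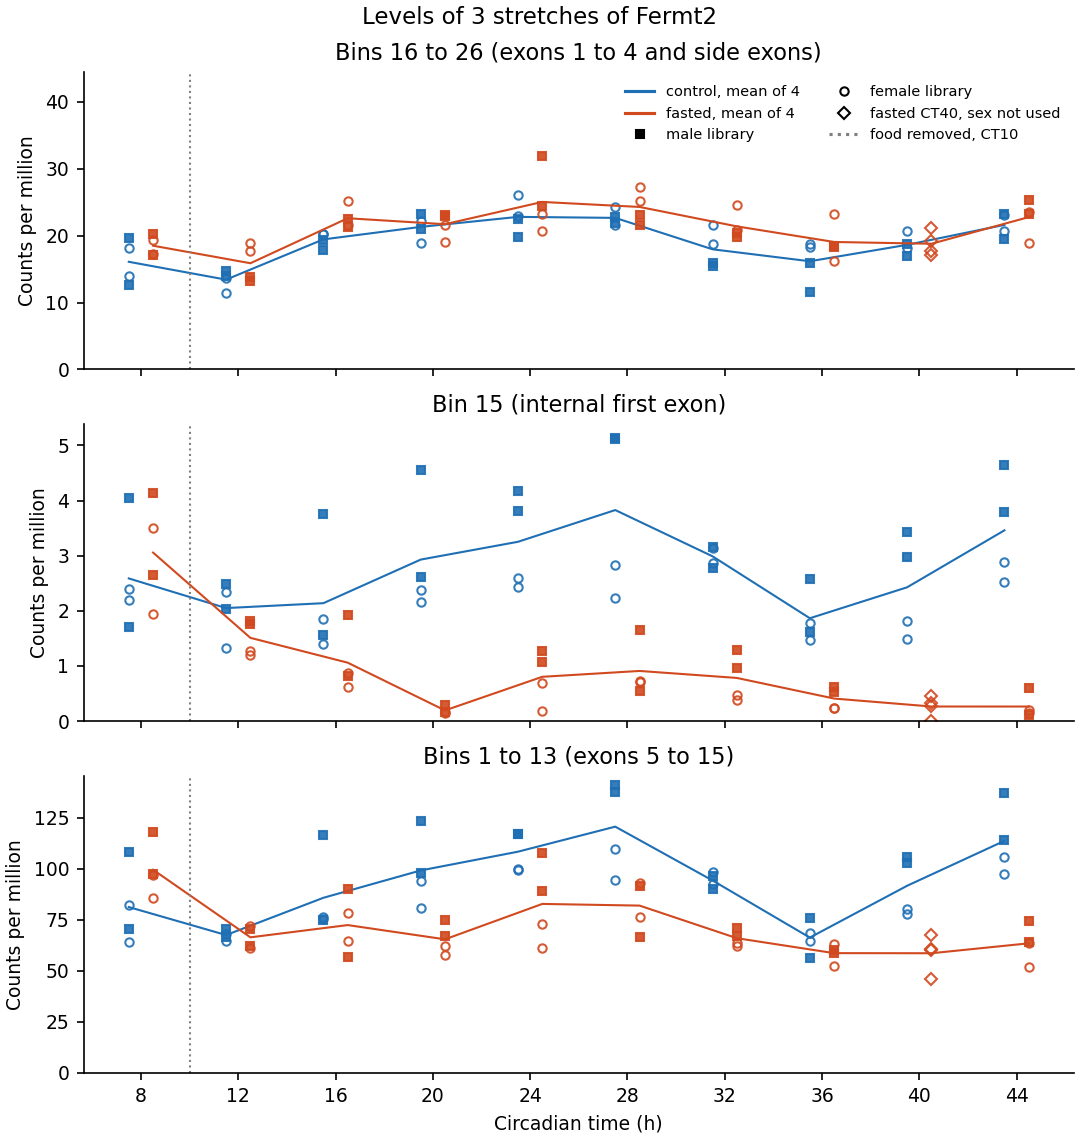
Levels of Fermt2 bins 16 to 26 (top), bin 15 (middle) and bins 1 to 13 (bottom) in CPM, on separate vertical axes, against circadian time (h), with 1 point per library and lines through the means of 4. The treatments overlap at 8 of 9 times after food removal in the top panel, with the higher means in fasted mice, while bin 15 separates from CT20 on.

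The ratio of the upstream to the downstream stretch was higher in fasted mice. Bins 16 to 26 amounted to 19.3% ± 3.09 of bins 1 to 13 in control and 36.1% ± 3.50 in fasted mice at CT44 (SD, n = 4). The ratios did not overlap at 7 of 9 times, CT20 to CT44. At CT8, before food removal, they were 19.99% ± 2.23 in mice labelled control and 18.8% ± 2.57 in mice labelled fasted, with overlap.

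Exons 2 to 4, which only transcripts that start upstream contain, were also set against exons 5 to 8 per base of annotated length. Bin counts do not scale with bin length, because a fragment counts in each bin it overlaps: bin 17, of 2 bases, held 2.03% of the gene's bin counts in control mice and bin 15, of 222 bases, held 2.33%. The values per length therefore serve to compare treatments over the same bins, not one stretch with another. Exons 2 to 4 held 2.77% ± 0.418 of the Fermt2 bin counts per 100 bases in control and 3.92% ± 0.472 in fasted mice (SD, n = 36). Exons 5 to 8, which Fermt2-202 shares except for the last 74 bases of exon 8 (bin 8), held 4.97% ± 0.175 and 4.63% ± 0.268. The ratio of the first stretch to the second was 40.8% to 76.3% in control libraries (median 54.6%) and 53.8% to 116% in fasted ones (median 85.9%). These ratios did not overlap at CT20, CT24, CT32, CT36, CT40 and CT44.

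The gene level of Fermt2 was also lower in fasted mice, by less than bin 15. In control libraries of CT12 to CT44 it was 69.5 CPM at the lowest, 119 at the median and 172 at the highest, and in fasted ones 67.4, 85.0 and 141. The fitted difference was -0.38 on the log2 scale (SE 0.041). The mean was lower at 9 of 9 times, with no overlap at 5 of them, CT20, CT28, CT32, CT40 and CT44. The largest gap was at CT44, with 139 ± 20.4 CPM in control and 83.2 ± 9.81 in fasted mice (SD, n = 4), and the smallest at CT12, with 83.4 ± 3.33 and 82.7 ± 5.79. Genes at large moved often in this contrast, with 62.5% of 21187 genes called by the edgeR quasi-likelihood test at an adjusted p under 0.05. The CPM of 4 fasted and 4 control libraries did not overlap in 21.1% of pairs of gene and time (5.96% to 30.1% by time).

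**Figure D5:**
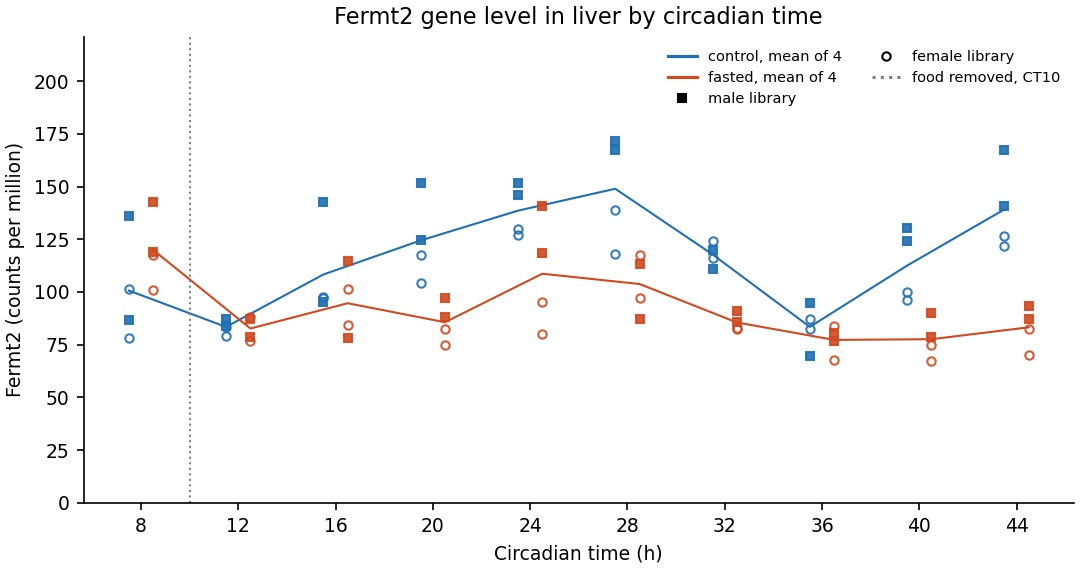
Fermt2 gene level in CPM (vertical axis) against circadian time (h), with 1 point per library, squares for males, circles for females and lines through the means of 4. Control means range from 83.4 at CT12 to 149 at CT28, and fasted means lie below them from CT12 on, by least at CT12 and most at CT44.

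Comparisons other than the contrast that chose the gene were tested. Of these, the change between days in fasted mice and the sex difference in the fasting change used the same fasted libraries as that choice. Their p-values for Fermt2 are therefore no independent support. The tests within control mice also used control libraries of CT12 to CT44, which entered that choice too. Only the CT8 comparison was between libraries outside it. The first comparison was between both treatments at CT8, before food was removed. Bin 15 held 2.02%, 2.33%, 2.74% and 3.06% in mice labelled control and 1.82%, 2.27%, 2.90% and 2.96% in mice labelled fasted. The ranges overlapped almost wholly, and the relative difference of -0.04 (SE 0.19) did not pass the test (edgeR diffSpliceDGE, adjusted p = 1.0). Without control CT8 female 2 it was 0.01. None of the 24 bins was called by diffSpliceDGE, 0 had an unadjusted p under 0.05, and limma's diffSplice called 0, where 0.012% of all bins were called. The gene level differed by 0.25 (SE 0.12) and was not called either (edgeR quasi-likelihood, adjusted p = 0.379), where 1.33% of genes were.

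The second was between the days at matched circadian phase, CT36 to CT44 against CT12 to CT20, within each treatment. In control mice bin 15 did not differ detectably, by -0.0038 (SE 0.11, diffSpliceDGE adjusted p = 1). None of the 24 bins was called by diffSpliceDGE, 0 had an unadjusted p under 0.05, and limma's diffSplice called 0, while 0.0128% of all bins were called. In fasted mice the median share of bin 15 was 0.937% in the 12 libraries of the first day and 0.321% in the 12 of the second. Mean shares were 1.82%, 1.07% and 0.220% at CT12, CT16 and CT20, and 0.524%, 0.325% and 0.296% at CT36, CT40 and CT44. The lower second day thus rested on CT12 and CT16, after 2 h and 6 h without food, while CT44 was not below CT20. The lowest and highest shares were 0.192% and 2.35% on the first day and 0% and 0.784% on the second, so the days overlapped. The relative change was -1.01 (SE 0.16, diffSpliceDGE adjusted p = 7.22e-07 over all bins, and 1.25e-06 per gene by Simes' method), and bin 15 was the only one of 24 bins called, where 0.569% of all bins and 5.75% of all genes were. Without CT40, and so without CT16 of matched phase in this comparison, the change was -0.75 and did not pass (diffSpliceDGE adjusted p = 0.121). Nor did it pass in males alone (-0.51, adjusted p = 1.0) or in females alone (-0.99, adjusted p = 0.407), compared without the same times.

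The gene level showed no called change between the days. In control mice it moved by 0.07 (SE 0.071, edgeR quasi-likelihood adjusted p = 0.962), in a comparison in which 0% of genes were called by this test, 1232 had an unadjusted p under 0.05, and DESeq2 called 3 and limma-voom 0. In fasted mice it moved by -0.14 (SE 0.072, adjusted p = 0.116), where 34.9% of genes were called.

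The third was between the sexes. In control mice bin 15 held 1.64%, 2.72% and 3.08% at the lowest, median and highest of 20 males, and 1.42%, 2.01% and 2.78% in 20 females. The ranges overlapped, and the male mean was the higher at 10 of 10 times. The relative difference, females minus males, was -0.38 (SE 0.086) and was called (diffSpliceDGE, adjusted p = 0.0130). Bins 16 and 17 in exon 4, just upstream of the internal start, were called the other way, at 0.35 (SE 0.077, adjusted p = 0.00504) and 0.34 (SE 0.084, adjusted p = 0.0299). These were 3 of 24 bins, against 0.203% of all bins, and the gene was called with an adjusted p of 0.0122 (Simes' method) where 1.6% of genes were. Bins 16 and 17 adjoin, and a fragment over both counts in each, so their calls are not independent of one another. Each of the 4 fits that left out 1 replicate number of 1 sex lost the call of bin 15, with values of -0.44 to -0.33 and adjusted p-values of 0.188 to 0.554, and that of bin 16 (0.156 to 0.320). Without CT40 the value of bin 15 was -0.35 and also missed the threshold (adjusted p = 0.0627).

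The gene level was lower in control females too, at 78.3 CPM at the lowest, 103 at the median and 139 at the highest of 20 libraries, against 69.5, 127 and 172 in 20 males. The difference was -0.22 (SE 0.055) and was called (edgeR quasi-likelihood, adjusted p = 0.00133), as it was for 39.2% of genes.

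Whether fasting acted differently in the sexes was tested over the 8 times from CT12 to CT44 that leave out CT40. For bin 15 the female minus male difference in the relative fasting change was -0.46 (SE 0.16) with an unadjusted p of 0.00417 and an adjusted p of 1 (diffSpliceDGE). The mean share was higher in fasted males than in fasted females at 8 of 8 times. As control males were also higher, at 10 of 10 times, that count does not measure a difference in the fasting change. No bin was called by diffSpliceDGE, 1 of 24 had an unadjusted p under 0.05, and limma's diffSplice called 0, with 0.0218% of all bins called. At the gene level the sexes differed by 0.05 in the fasting effect over CT12 to CT44 (SE 0.083, edgeR quasi-likelihood adjusted p = 0.778), where 12.4% of genes were called.

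The last was the 24 h rhythm in the 40 control libraries. The Fermt2 gene level was rhythmic, with 0.74 log2 units between the fitted peak and trough and a peak at circadian hour 0.318, near the start of the subjective day (edgeR quasi-likelihood, adjusted p = 2.09e-07). Rhythms were called in 41.8% of 20114 genes. Control means were 83.4 ± 3.33 CPM at CT12 and 83.4 ± 10.6 at CT36, the same phase 1 day later, and 149 ± 25.2 at CT28. The share of bin 15 was not called rhythmic, with a fitted range of 0.32 in log2 odds (limma, adjusted p = 0.284). Of 24 bins 1 was called, bin 14, with a range of 1.66 in log2 odds and a peak at circadian hour 22.8 (limma, adjusted p = 0.0385), where 1.24% of 238590 bins were. Its mean share in control mice was 0.108% ± 0.112 at CT8 and 0.454% ± 0.261 at CT24 (SD, n = 4). The call of bin 14 was lost with a linear trend in the fit (range 1.62, adjusted p = 0.0735), without control CT8 female 2 (1.58, adjusted p = 0.0556) and in 3 of the 4 fits that left out 1 replicate number of 1 sex (1.39 to 1.72, adjusted p = 0.174 to 0.330).

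The partners of kindlin-2 were followed in the same fasting contrast, by lists of adhesion genes. Of 53 genes other than Fermt2, 20 rose, 25 fell and 8 did not pass the edgeR quasi-likelihood test at an adjusted p under 0.05, beside 29.5% of all genes that rose and 32.9% that fell. The median change of the list was -0.10 on the log2 scale and that of all genes -0.02.

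Among the other kindlins and the talins, 2 of 4 rose, beside 29.5% of all genes. Fermt1, which encodes kindlin-1, rose from a very low mean of 0.619 ± 0.311 to 1.38 ± 0.562 CPM (SD, n = 36 each), by 1.17 (SE 0.10, adjusted p = 1.44e-13). Fermt3, which encodes kindlin-3, was at 6.42 ± 1.47 CPM in control and 6.06 ± 1.73 in fasted mice and was not called (adjusted p = 0.269), although in males alone it was, at -0.21 (adjusted p = 0.0386). Tln1 and Tln2 encode the talins that bind integrin tails together with kindlins. Tln1 fell from 148 ± 14.5 to 130 ± 9.63 CPM, lower at 9 of 9 times. Tln2 rose from 14.1 ± 2.24 to 16.7 ± 4.03 CPM, higher at 7 of 9 times.

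Of 18 integrin subunit genes 5 rose, 9 fell and 4 were not called, beside 29.5% of all genes that rose and 32.9% that fell. The largest rise was in Itga2, a subunit of a collagen receptor, at 3.99 (SE 0.46), from 0.170 ± 0.0888 to 5.83 ± 9.97 CPM with a wide spread among fasted libraries. Itgb3, the beta subunit of vitronectin and fibrinogen receptors, rose by 1.23 (SE 0.11). Itga6, a laminin receptor subunit, fell by 1.00 on the log2 scale, and Itga8 fell by 0.56. Itgb1, the partner of most alpha subunits, was at 171 ± 10.8 CPM in control and 177 ± 15.8 in fasted mice, and rose by 0.05 (adjusted p = 0.0407).

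Of 7 genes of the ILK, PINCH and parvin complex 3 rose, 3 fell and 1 was not called. The shares of all genes were again 29.5% and 32.9%. Lims2, which encodes PINCH-2, rose by 0.56 and was higher at 9 of 9 times, while Lims1, which encodes PINCH-1, fell by 0.30. Rsu1, a partner of PINCH-1, fell by 0.47. Ilk, the central pseudokinase of the complex, rose by 0.24.

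Of 24 further adhesion and actin-linked genes 10 rose, 12 fell and 2 were not called, beside the same 29.5% and 32.9% of all genes. The tensins Tns2 and Tns1, which link integrins to actin, rose by 0.80 and 0.70. Kank2, which binds talin, fell by 0.79, and Actn1, which crosslinks actin, fell by 0.70.

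Exon usage was examined in the same genes. Of 52 adhesion genes tested apart from Fermt2, 8 were called (diffSpliceDGE with Simes' method, adjusted p under 0.05), beside 14.3% of all genes. Over the alternatives tried, the count ranged from 2 in males alone to 10 by limma's diffSplice. Over all genes these called 478 of 13100 and 2199 of 13889. None of 17 integrin genes was called by diffSpliceDGE, 1 had an unadjusted p under 0.05, and limma's diffSplice called 2. The 8 were Tln1, Lims2, Kank1, Tns2, Git2, Actn4, Tns1 and Actn1. The strongest by p was Kank1, a second talin-binding gene of its family, in which bin 6 fell from 1.28% ± 0.377 to 0.773% ± 0.403 of the gene's bin counts, a relative change of -0.77 (SE 0.10, adjusted p = 9.9e-11). In Tns2, bin 1 fell from 0.432% ± 0.155 to 0.245% ± 0.125, a relative change of -0.85 (SE 0.11). In Git2, which encodes an adaptor of paxillin, bin 31 rose from 2.54% ± 0.544 to 3.62% ± 1.03 (0.50, SE 0.078).

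Genes for splicing regulators were followed in the same contrast. Of 32 listed, 29 were tested, and 16 rose, 6 fell and 7 were not called, beside 29.5% of all genes that rose and 32.9% that fell. The largest rises were in Celf2 (0.64), Ptbp2 (0.54), Mbnl2 (0.41) and Clk1 (0.41), which encode RNA-binding splicing factors and a kinase of such factors. Esrp2, the epithelial splicing regulator of hepatocytes, was at 113 ± 15.3 CPM in control and 116 ± 21.3 in fasted mice and was not called (adjusted p = 0.499). Exon usage was called in 11 of 28 of these genes by diffSpliceDGE, beside 14.3% of all genes. Limma's diffSplice called 12 of the 28, beside 2199 of all 13889 genes. The part of these regulators in the Fermt2 result was not tested.

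Markers of liver cell types were counted in the same way, against the same background of 29.5% of all genes that rose and 32.9% that fell. Of 9 hepatocyte markers 6 rose and 2 fell, with sums of 66645 to 122549 CPM in control and 79767 to 140333 in fasted libraries. Of 12 stellate cell markers 4 rose and 7 fell, with sums of 405 to 715 and 377 to 782 CPM. Of 10 sinusoidal endothelial markers 4 rose and 5 fell, with sums of 449 to 684 and 454 to 743 CPM. Of 8 Kupffer cell markers 7 fell, with sums of 249 to 856 and 168 to 537 CPM. Of 6 cholangiocyte markers 5 fell, with sums of 24.7 to 66.3 and 6.78 to 50.7 CPM. Of 6 smooth muscle and mesothelium markers 5 fell, with sums of 8.52 to 15.3 and 4.98 to 14.3 CPM, and of 6 lymphocyte markers 3 fell, with sums of 1.501 to 8.51 and 0.696 to 10.1 CPM. The part of these differences in the Fermt2 values was not tested.

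The genes most like Fermt2 were sought by Pearson's r over the 20 means of treatment and time, among 11575 genes with a mean log2 CPM of at least 1. These correlations are descriptions, since the means share libraries and fasting moved most genes. Closest to the Fermt2 gene level were Gm36041 (r = 0.967), Mapk15 (0.937), ENSMUSG00000121497 (0.931), Dhrs3 (0.927) and Ethe1 (0.926). Closest to the log2 odds of bin 15 were Fras1 (r = 0.984), Cnp (0.981), Ebpl (0.980), Gm56774 (0.980) and Tnfrsf14 (0.976). Fras1 encodes an extracellular matrix protein, and its level was 5.68 CPM in control and 1.98 in fasted mice on average. The most opposed were Zfp746 (r = -0.974), Pdgfra (-0.973), Adgrf5 (-0.971), Gm20186 (-0.963) and Gm59199 (-0.963). In the fasted CT40 mean of the log2 odds, the library with a bin 15 count of 0 entered at -12.65. That value is set by the offset of 0.5 and lowered the mean, as the other libraries of that group were at -8.32 to -7.41.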

How the data were processed

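Stranded poly(A) libraries (paired reads of 76 cycles) were grouped by sample title, because other label fields disagreed with the titles on sex and treatment. Per the labels the authors used Trimmomatic, HISAT2 and DESeq2 on GRCm39. Versions, the counting program and the annotation release are not given in the sources used here. The deposited tables hold raw read counts per gene and per exon bin, and 5 rows naming no bin (8.28% to 25.9% of the exon table's counts) were left out. A normalised table was not used.

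Gene counts were fitted in edgeR 4.0.16 (R 4.3.3; TMM, filterByExpr, quasi-likelihood, 1 mean per treatment, time and sex, 40 means). Bins were fitted with diffSpliceDGE (39 means), and rhythms as a 24 h cosine and sine, for bins in limma 3.58.1 on log2 odds with an offset of 0.5. P-values cover either direction and were adjusted by Benjamini-Hochberg over all genes or bins tested. Alternatives included DESeq2 1.42.0 and limma. The fits of exon usage and of bin rhythms were tested on simulated counts. The gene fit tested on such counts estimated the dispersion in another way than the fit reported.

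The bins described in full were those with the most positive and most negative relative fasting change (up to 3 each) and the largest. From each list the text gives the called genes with the largest changes. Itgb1, Esrp2 and Fermt3 were named after their values were seen, as was bin 17. The gene, the lists and the tests were chosen with earlier results of these data known. Replicates were compared only within the 40 groups of 1 treatment, time and sex, and no such pair agreed within sampling noise.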

Additional observations from a re-analysis of the deposited data

Results flagged for a closer look

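In 60 groups of 4 libraries of 1 treatment and time, 6 had a library set apart from the other three by Dixon's ratio at the 95% level, where chance alone would set apart about 3 (1 in 20). At the gene level control CT16 male 2 was at 142.8 CPM, with the others at 95.5 to 97.8. In the share of bin 15, control CT20 male 2 was at 3.06% (others 2.00% to 2.11%) and fasted CT20 male 1 at 0.296% (others 0.192% to 0.197%). In bins 16 to 26 as a percent of bins 1 to 13, control CT20 male 2 was at 16.99% (others 23.4% to 23.6%), fasted CT36 female 1 at 36.8% (others 30.4% to 31.3%) and fasted CT8 female 1 at 22.6% (others 17.2% to 17.7%). The library control CT20 male 2 thus stood apart in both exon measures.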

How the results depend on the processing

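Relative to other bins, bin 15 of Fermt2 was lower in fasted mice under every alternative tried that tested it (-2.14 to -1.66 on the log2 scale), and so was the gene level (-0.41 to -0.36). These refits used libraries of the contrast that chose the gene, so their agreement is no independent support. With at least 10 counts required in every library bin 15 was not tested, and the gene's second-day call in fasted mice was lost (adjusted p = 0.765). That call was also lost without CT40 and its matched time CT16 (-0.75, adjusted p per gene 0.204). It was lost in females alone (-0.99, 0.639) and in males alone (-0.51, 1.0), compared without the same times, and the cause was not tested. Leaving out 1 replicate number of 1 sex gave -1.27 to -0.86, with adjusted p per gene of 1.39e-05 to 0.0223. For fasted CT40 these fits followed the names of the exon columns, 3 of which were best matched by another library of that group. The sex difference in controls was -0.44 to -0.33 in these fits (adjusted p per gene 0.320 to 0.405) and -0.35 without CT40 (0.0587). Differences near 0 changed sign. In controls the second-day difference of bin 15 was 0.0107 with a replicate block and 0.0287 by limma's diffSplice. It was 0.0244 in males alone, without CT16 and CT40, and -0.14 to 0.18 with 1 replicate number left out. At CT8 it was 0.0133 without control CT8 female 2, chosen after seeing the data, and -0.19 to 0.0507 with 1 replicate number left out. The gene's second-day difference in controls was -0.0122 to 0.16 in these fits, and Fermt3 was at 0.0108 in females alone. The sex difference of bin 14 was 0.14 without male replicate 2 (-0.53 to 0.14). Of the adhesion genes, 8 in the fit reported, exon usage was called in 3 with at least 10 counts in every library, 2 in males alone, 5 in females alone and 5 to 8 with 1 replicate number left out. Over all genes, exon usage was called in 1985, against 946 with 10 counts in every library, 478 in males alone, 1082 in females alone and 1107 to 1482 with 1 replicate number left out. Second-day gene differences in controls numbered 0, against 338 without a filter on low counts, 3 by DESeq2, and 17 and 6 without male replicate 2 and female replicate 1. Replicate numbers did not pair the samples (r over 0.1 in 1 of 20 pairs of groups, median 0.00193), and the replicate block changed no call of the Fermt2 gene level or of its bins 1, 14, 15, 16, 20 and 24 (bin 15 in fasting -1.96, between days in fasted mice -1.01, between sexes -0.38, gene level -0.38). Bin 15 had 0 to 133 counts in fasted libraries and bin 14 had 0 to 26, which limits the precision of low shares.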
